A study of Mus musculus with 6 samples.

Results

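The nuclear-encoded subunits of oxidative phosphorylation were examined complex by complex in mouse kidney tubular cells given TWEAK, a cytokine of the TNF superfamily. Members were the genes whose symbols carry the subunit names of complex I (Nduf followed by a, b, c, s or v and a number), complex II (Sdha to Sdhd), complex III with cytochrome c (Uqcr, Cyc1, Cycs), complex IV (Cox4 to Cox8) or complex V (Atp5). Symbols containing -ps were left out, but probe sets that may read processed copies were not. The rule gave 116 of 28361 probe sets and 87 of 22061 genes: 37 in complex I, 4 in complex II, 10 in complex III, 18 in complex IV, 15 in complex V, and 3 that match the names but are no subunits. The naming rule uses no measured value, and each gene is given by its brightest probe set over all arrays.

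The cells were MCT, a proximal tubular epithelial line derived from the renal cortex of SJL mice. All cultures were kept overnight without serum, and then received vehicle (controls) or 100 ng/mL TWEAK for 6 h. Each group had 3 arrays from separate experiments, called Control 1 to 3 and TWEAK 1 to 3. The model is a single cell line in culture with 1 dose and 1 time.

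Complexes I and II feed electrons from NADH and succinate to coenzyme Q, complex III passes them to cytochrome c, complex IV hands them to oxygen, and the ATP synthase (complex V) spends the resulting proton gradient on ATP. The proximal tubule relies on this route for its transport work and is among the most mitochondria-rich segments of the kidney. Nearly all subunits are encoded in the nucleus and a few core subunits in mitochondrial DNA; many nuclear promoters bind NRF1, GABP, YY1 or ERR factors, which the coactivators Ppargc1a and Pprc1 assist.

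All values are log2 expression values per probe set, normalised by the authors with RMA, and a difference is the TWEAK mean minus the control mean with its moderated standard error. A gene was called where limma's p, adjusted by Benjamini-Hochberg over all 22061 genes, was under 0.05. Over all genes 661 (3.00%) were called, 283 higher (1.28%) and 378 lower (1.71%); after centring each array on its median the split was 325 higher and 225 lower, and after cyclic loess 183 higher and 69 lower. The 4 genes taken as a check of the TWEAK response all rose, from Spib by 1.71 to the adhesion molecule Vcam1 by 3.76. They were chosen with earlier results of these data known, so their rise is no independent check. The tubule transcription factor Pax8 had a control mean of 10.67 and the epithelial keratin Krt18 11.08, whereas the apical proteins Cubn (6.13) and Slc34a1 (6.15) and the tubule factor Hnf4a (6.28) lay near or below the array medians of 6.26 to 6.34. The epithelial adhesion genes Epcam (4.98) and Cdh1 (5.70), the leukocyte markers Ptprc (4.41) and Adgre1 (4.10) and the fibroblast marker Dcn (4.16) lay below those medians. Other markers of these types did not: the brightest of the leukocyte list had a mean over the 6 arrays of 6.84. The brightest fibroblast marker had 7.46 and the brightest muscle marker 6.49, also above the medians. No marker of any cell type was called.

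Of the 87 members, 1 was called: Ndufa5 of complex I, which fell. No member was called higher, and 86 were not called. The share called lower was 1.15% of the members against 1.71% of all genes. At an unadjusted p under 0.05, 11 members were lower (12.6%, against 13.1% of all genes) and 1 was higher (1.15%, against 8.15%). In 11 members every TWEAK array lay below every control array (12.6%, against 13.5% of all genes), and in 3 every TWEAK array lay above (3.45%, against 12.9%). Most members were bright, 81 of the 87 lying above the median gene. Among the 11030 genes above it, 3.14% were called lower, 22.1% were lower and 12.2% higher at an unadjusted p, and the arrays did not overlap in 22.2% (lower) and 15.5% (higher). The shares of lower members were thus near those of all genes but below those of the brighter genes, and the shares of higher members were below both. Of these lower members 10 were in both sets. The count of called members depended on the fit: with the replicate block it was 0 (0.938% of all genes called, 0.385% lower), with a trended robust variance model 4 lower (2.39% of all genes lower), among the genes brighter than the median gene 5 (5.83%), with array weights 7 (9.56%), and without Control 1 it was 3 (6.40%). The added ones came from Atp5pb, Atp5j, Ndufa4, Ndufs1, Sdha and Ndufb5, and no member was called higher in any of these fits.

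The members' differences ran from -0.73 (Ndufs1) to 0.23 (Cox8b), with a median of -0.03 against 0.03 over all genes and -0.01 over the genes brighter than the median gene. A total of 75 members (86.2%) differed by less than 0.25 either way, against 77.2% of all genes and 62.7% of the brighter ones. The 95% interval of the difference stayed within 0.5 either way for 72 members (82.8%, against 74.5% of all genes and 59.7% of the brighter ones) and within 1 for 85, the exceptions being Ndufs1 and Atp5pb. On the brightest probe sets, differences below -0.5 were found in 5 members (Ndufs1, Atp5pb, Ndufa4, Sdha and Ndufa5), and none lay above 0.25. Of the dimmer probe sets, 1 of Uqcr11 and 1 of Cycs lay above 0.25 (both 0.31), and 1 of Atp5pb below -0.5 (-0.65). The median difference was -0.03 in complex I, -0.14 in complex II, 0.01 in complex III, 0.00 in complex IV and -0.04 in complex V. In bulk RNA, fewer cells and less RNA per cell cannot be told apart, and RMA makes the distributions of the arrays alike, which hides a shift common to most transcripts.

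**Figure D1:**
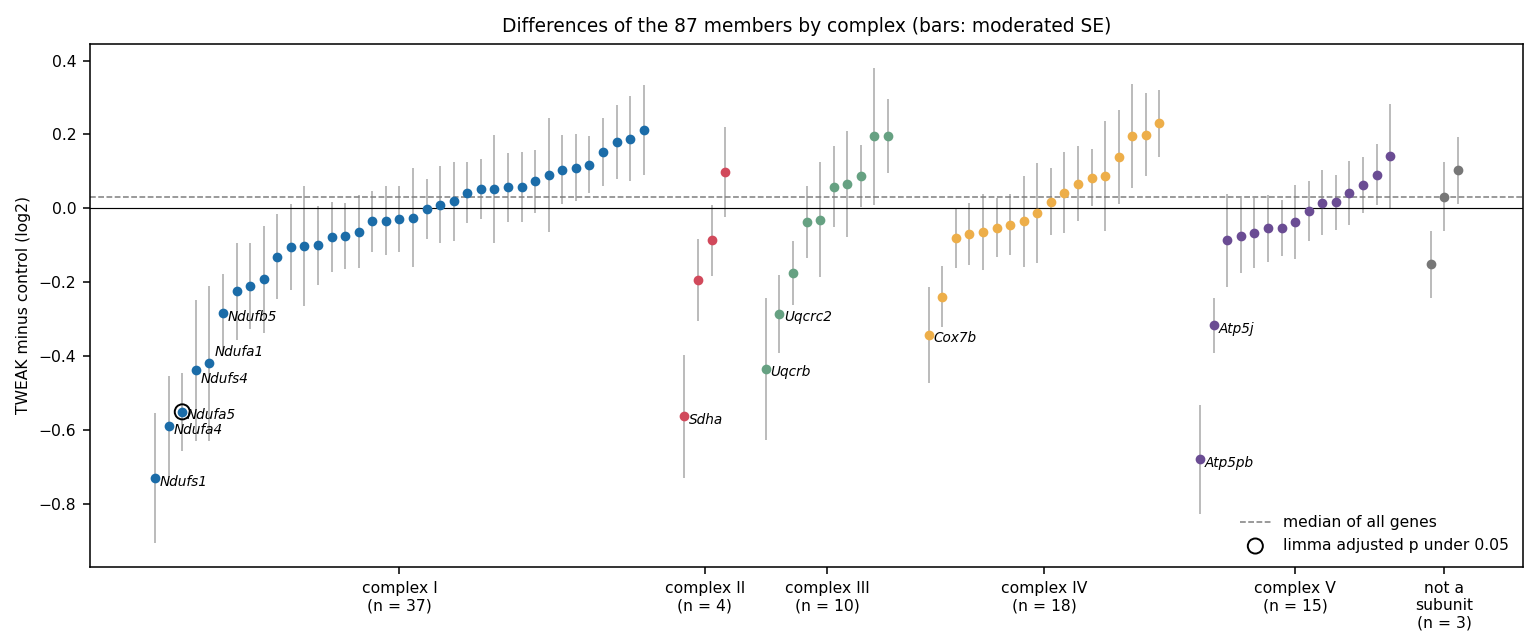
Difference (TWEAK minus control, log2) of each of the 87 members on the vertical axis, ordered within complex along the horizontal axis; points are limma estimates from 3 arrays a group, bars are moderated standard errors, the dashed line is the median of all genes (0.03) and the ring marks the called gene, Ndufa5. Most points lie within 0.25 of 0, and each complex has 1 or a few members well below the others.

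Promoter sequence is shown for 6 members: the called Ndufa5, another 4 whose TWEAK arrays all lay below the controls in complexes I, II and V (Ndufa4, Sdha, Atp5j and Atp5pb) and, for contrast, Uqcrc1 of complex III, whose arrays overlapped. Windows run from 250 bases before to 50 bases after an annotated start in RefSeq (GRCm38.p6), 5′ to 3′ on the gene's strand, and capitals mark letters that match a motif searched on both strands: the NRF1 consensus, CCGGAAG (ETS family, which includes GABP), AAGATGGCG (YY1) or TCAAGGTCA (ERR family). Ndufa5 lies on the minus strand (chr6:24527641-24527940) with an NRF1 match whose first base is at -26 from the start, and the same stretch lies at -190 from its other annotated start. Ndufa4 is on the minus strand (chr6:11907401-11907700) with no match. Sdha is on the minus strand (chr13:74350191-74350490) with NRF1 matches at -98, -55 and -10. Atp5j is on the minus strand (chr16:84834927-84835226) with a YY1 match at -88 and an ETS match at -61. The window of its other annotated start (chr16:84835576-84835875), not shown, has no match. Atp5pb is on the minus strand (chr3:105959214-105959513) with no match. Uqcrc1 is on the plus strand (chr9:108936398-108936697) with NRF1 matches at 6 and 31 bases after the start, the second of which reads as a match on both strands.
Ndufa5: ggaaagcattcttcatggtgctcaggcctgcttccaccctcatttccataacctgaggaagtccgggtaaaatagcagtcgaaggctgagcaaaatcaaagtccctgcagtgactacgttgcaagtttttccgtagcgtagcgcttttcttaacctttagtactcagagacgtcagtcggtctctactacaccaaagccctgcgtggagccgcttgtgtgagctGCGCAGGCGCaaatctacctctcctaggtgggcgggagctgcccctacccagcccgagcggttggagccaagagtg
Ndufa4: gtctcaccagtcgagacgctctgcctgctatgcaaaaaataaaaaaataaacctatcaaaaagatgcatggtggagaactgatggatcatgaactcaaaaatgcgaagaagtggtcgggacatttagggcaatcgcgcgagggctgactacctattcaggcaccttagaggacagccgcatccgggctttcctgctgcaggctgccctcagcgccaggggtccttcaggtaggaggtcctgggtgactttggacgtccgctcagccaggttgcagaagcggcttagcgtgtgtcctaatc
Sdha: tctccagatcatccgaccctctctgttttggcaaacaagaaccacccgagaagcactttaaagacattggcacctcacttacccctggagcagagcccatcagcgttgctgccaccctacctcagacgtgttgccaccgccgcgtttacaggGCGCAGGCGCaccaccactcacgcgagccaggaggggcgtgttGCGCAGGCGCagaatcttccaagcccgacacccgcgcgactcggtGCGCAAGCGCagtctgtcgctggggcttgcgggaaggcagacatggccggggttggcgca
Atp5j: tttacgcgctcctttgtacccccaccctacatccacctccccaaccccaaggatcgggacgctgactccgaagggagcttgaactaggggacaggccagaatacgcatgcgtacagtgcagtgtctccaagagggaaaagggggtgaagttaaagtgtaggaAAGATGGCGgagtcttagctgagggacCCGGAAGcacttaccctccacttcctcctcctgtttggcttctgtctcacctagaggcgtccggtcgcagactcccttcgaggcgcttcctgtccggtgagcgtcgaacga
Atp5pb: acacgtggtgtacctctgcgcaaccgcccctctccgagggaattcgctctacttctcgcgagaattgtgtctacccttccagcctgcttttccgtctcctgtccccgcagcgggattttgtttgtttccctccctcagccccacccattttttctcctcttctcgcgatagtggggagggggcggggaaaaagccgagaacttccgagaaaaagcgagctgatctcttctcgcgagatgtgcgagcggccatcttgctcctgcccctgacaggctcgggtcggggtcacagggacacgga
Uqcrc1: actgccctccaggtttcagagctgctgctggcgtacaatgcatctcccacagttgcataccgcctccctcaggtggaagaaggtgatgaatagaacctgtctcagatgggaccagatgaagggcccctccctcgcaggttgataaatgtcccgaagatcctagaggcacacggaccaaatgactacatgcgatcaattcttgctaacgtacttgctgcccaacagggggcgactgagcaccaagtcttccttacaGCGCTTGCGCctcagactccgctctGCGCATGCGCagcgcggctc

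The RefSeq table held promoters for 70 of the 87 members, 76 windows in all. An NRF1 match was in 23.7% of the members' windows and in 6.38% of the 21263 windows of protein-coding genes. The ETS motif was in 21.1% against 11.6%, the YY1 motif in 11.8% against 1.83%, and the ERR motif in 2.63% against 0.334%. None of the 54 matching stretches overlapped a stretch of another motif. Among the 9 members lower at an unadjusted p that had a window, 2 carried an NRF1 match, 1 an ETS match, 2 a YY1 match and none an ERR match. The 17 members with an NRF1 match had a median difference of -0.04 (from -0.56 to 0.21), and the 53 without one had -0.00 (from -0.68 to 0.23). The ranges of these groups cover each other almost entirely, but ranges are set by a few extremes and cannot show whether the groups differ. That difference was not tested. A match is a run of letters, not a measured binding site.

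Complex I held the one called member. Ndufa5, an accessory subunit of the arm that reaches into the matrix, read 7.94, 7.93 and 8.26 on Control 1 to 3 and 7.47, 7.53 and 7.48 on TWEAK 1 to 3. The TWEAK arrays were close together and all lay below the controls, of which Control 3 was the highest. Ndufa5 fell by 0.55 (SE 0.106), a 1.46-fold lower mean (limma, Benjamini-Hochberg adjusted p = 0.0411). With one array left out, the call was kept without Control 1 (adjusted p = 0.0267) and lost without any of the other 5 (adjusted p from 0.0691 to 0.129); it was also lost with the replicate number as a block (adjusted p = 0.0712). In the authors' deposited table its false discovery rate, taken over all probe sets, was 0.0671, the lowest among the members.

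Ndufs1, the large iron-sulphur core subunit where electrons from NADH travel, read 7.91, 8.14 and 8.36 in controls and 7.40, 7.73 and 7.09 with TWEAK. Its groups did not overlap, with Control 3 the highest array and TWEAK 3 the lowest. The difference of -0.73 (SE 0.176) was the lowest of the 87, but its limma adjusted p was 0.0623. Ndufa4, first described in complex I and since assigned to complex IV in human cells, read 10.43, 10.28 and 10.49 in controls and 9.54, 9.83 and 10.06 with TWEAK. These groups did not overlap either, and the TWEAK arrays spread more than the controls. The difference was -0.59 (SE 0.136, limma adjusted p = 0.0565). Counting Ndufa4 and its hypoxia-induced paralogue Ndufa4l2 with complex IV moved that complex's median from 0.00 to -0.02, and that of complex I from -0.03 to -0.02.

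Ndufb5, an accessory subunit of the membrane arm, read 10.33, 10.42 and 10.55 in controls and 10.03, 10.10 and 10.32 with TWEAK. TWEAK 3 lay just below the lowest control, so the groups did not overlap, and the difference was -0.28 (SE 0.106, limma adjusted p = 0.166). Its other, dimmer probe set gave 0.08, of opposite sign. Ndufs4, an accessory subunit whose loss causes a Leigh-like disease in mice, read 10.49, 10.83 and 11.12 in controls and 10.56, 10.52 and 10.04 with TWEAK. The groups overlapped at Control 1, and the difference was -0.44 (SE 0.190, limma adjusted p = 0.233). Ndufb4, of the membrane arm, ran the other way: 12.50, 12.40 and 12.49 in controls and 12.59, 12.55 and 12.61 with TWEAK. Its groups did not overlap, but the difference was 0.12 (SE 0.0769, limma adjusted p = 0.441). Ndufs4 and Ndufb4 were chosen after their values were seen.

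Among the brightest and dimmest probe sets of complex I, Ndufs7, the core subunit next to the coenzyme Q site, differed by 0.05 and Ndufa4l2 by -0.03, both with overlapping groups. The NADH-binding core subunit Ndufv1 differed by 0.01. Ndufb6 and Ndufc1, accessory subunits with 2 probe sets each of opposite sign, differed by -0.10 and -0.00 on the brighter one. Ndufb6 shows how 1 array can set a mean: controls read 11.86, 11.89 and 11.92, and TWEAK arrays 11.40, 11.85 and 12.10, on either side of them.

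Complex II, which is also an enzyme of the citric acid cycle, was measured for all 4 subunits and had no called member. Sdha, the flavoprotein that oxidises succinate, read 10.24, 10.40 and 10.34 in controls and 9.96, 9.98 and 9.35 with TWEAK. All TWEAK arrays lay below the controls, TWEAK 3 by the widest margin, and the difference was -0.56 (SE 0.166, limma adjusted p = 0.0973). The membrane anchors Sdhd and Sdhc differed by -0.19 and -0.09 and the iron-sulphur subunit Sdhb by 0.10, each with overlapping groups. With 4 subunits, the complex's median is the midpoint of Sdhd and Sdhc, and without TWEAK 2 it was -0.04.

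In complex III the large core proteins Uqcrc1 and Uqcrc2 had differences of opposite sign. Uqcrc2 read 11.20, 11.28 and 11.50 in controls and 11.10, 11.10 and 10.92 with TWEAK, without overlap (difference -0.29, SE 0.105, limma adjusted p = 0.165). Uqcrc1, whose promoter is shown above, read 11.73, 11.72 and 11.60 in controls and 11.70, 11.77 and 11.83 with TWEAK, with overlap (difference 0.09, SE 0.0832). Neither passed the test, and whether the pair differed from each other was not tested.

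Uqcrb, a small coenzyme Q-binding subunit, read 10.72, 10.79 and 11.14 in controls and 10.03, 10.74 and 10.57 with TWEAK. The groups overlapped, since TWEAK 2 lay above Control 1, and TWEAK 1 was far below the rest (difference -0.43, SE 0.191, limma adjusted p = 0.241). All 3 of its probe sets were lower, by 0.37 to 0.43. Uqcrh, the acidic hinge protein, read 11.35, 11.35 and 11.50 in controls and 11.29, 11.24 and 11.15 with TWEAK, without overlap, for a difference of -0.17 (SE 0.0863, limma adjusted p = 0.296). Cyc1, the haem-bearing cytochrome c1, read 11.69, 11.51 and 11.51 in controls and 11.71, 11.67 and 11.92 with TWEAK. Its groups overlapped at Control 1, and the difference was 0.20 (SE 0.0999, limma adjusted p = 0.311). The Rieske iron-sulphur protein Uqcrfs1 differed by -0.04. Cytochrome c, Cycs, differed by -0.03 on its brightest probe set, but its 3 probe sets ran from -0.14 to 0.31. The last came from a dim one with values between 4.34 and 4.77. On it every TWEAK array lay above every control (SE 0.0753, limma adjusted p over all probe sets = 0.0901). Which of the 3 reads the gene itself was not tested, so the direction for Cycs is uncertain.

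Complex IV had no called member among 18. Cox7a2, the isoform of a small subunit used in most tissues, read 11.30, 11.26 and 11.27 in controls and 10.98, 10.99 and 11.14 with TWEAK. The controls were tight and lay above all TWEAK arrays (difference -0.24, SE 0.0822, limma adjusted p = 0.141). Cox7b, another small subunit, read 11.75, 11.95 and 12.27 in controls and 11.63, 11.69 and 11.62 with TWEAK. Here the TWEAK arrays were tight, just below Control 1, and the controls spread upward to Control 3. The difference was -0.34 (SE 0.131, limma adjusted p = 0.176), and -0.48 on its other probe set. The subunits nearest the catalytic core, Cox4i1, Cox5a and Cox5b, differed by -0.01, -0.06 and -0.04, and the bright Cox6c by -0.07.

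Isoforms that other tissues use in place of the common ones, such as heart and skeletal muscle or testis, form a group of 8 (Cox4i2, Cox6a2, Cox6b2, Cox7a1, Cox7b2, Cox8b, Cox8c and Ndufa4l2). None was called, and their differences ran from -0.04 to 0.23 with a median of 0.11, against 0.03 over all genes. The group was mostly dim, with a median level of 5.99, and genes of like level were not compared. Mean levels lay above the array medians for Cox7a1 (8.42), Cox6a2 (7.29) and Cox4i2 (6.51) and below them for the others. The median difference varied with level, being -0.01 over the genes brighter than the median gene. Cox8b, the muscle form of a small subunit, read 5.54, 5.53 and 5.39 in controls and 5.81, 5.61 and 5.73 with TWEAK. The groups did not overlap, and the difference was 0.23 (SE 0.0912, limma adjusted p = 0.193). Its values were below every array median, as were those of Cox7b2, which read between 3.94 and 4.47, and Cox6b2, between 5.36 and 5.77. For 7 of the 8 isoforms (87.5%, against 33.2% of all genes) Control 3 was the lowest array.

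The ATP synthase had a median standard error of 0.0876 over its members, against 0.101 over all members, and none of its 15 was called. Atp5pb, the stator subunit b that links the membrane part to the catalytic head, read 10.23, 10.48 and 10.80 in controls and 9.91, 9.89 and 9.67 with TWEAK. There was no overlap, Control 3 was the highest and TWEAK 3 the lowest, and the difference was -0.68 (SE 0.148, limma adjusted p = 0.0515). Its second probe set gave -0.65. Atp5j, the coupling factor of the same stator, read 11.42, 11.42 and 11.38 in controls and 11.08, 11.08 and 11.12 with TWEAK. Each group spanned a few hundredths and they lay well apart, yet the difference of -0.32 (SE 0.0741, 1.25-fold lower) had a limma adjusted p of 0.0593. Without Control 1 the fit called Atp5pb but not Atp5j.

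Of the catalytic head, the subunits alpha (Atp5a1) and beta (Atp5b) differed by -0.05 and 0.02, and gamma (Atp5c1), the turning shaft, by -0.09, the last with a 95% interval from -0.37 to 0.20. Atp5d, the delta subunit of the central stalk, read 13.09, 13.16 and 13.07 in controls and 13.17, 13.18 and 13.16 with TWEAK. The groups did not overlap, by a margin below the rounding of these values, for a difference of 0.06 (SE 0.0752). Atp5e, the epsilon subunit of that stalk, differed by 0.14, Atp5g1 of the rotor ring by 0.09 and Atp5k, which helps hold dimers together, by 0.04, all with overlap. Of the stator genes, Atp5h and Atp5o differed by -0.04 and -0.01, and whether they differed from Atp5pb and Atp5j was not tested. The 3 genes that match the names without being subunits were not called either: Emc8 of the endoplasmic reticulum (0.03) and Dmac2 and Dmac2l, both named for mitochondrial assembly roles (0.10 and -0.15).

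**Figure D2:**
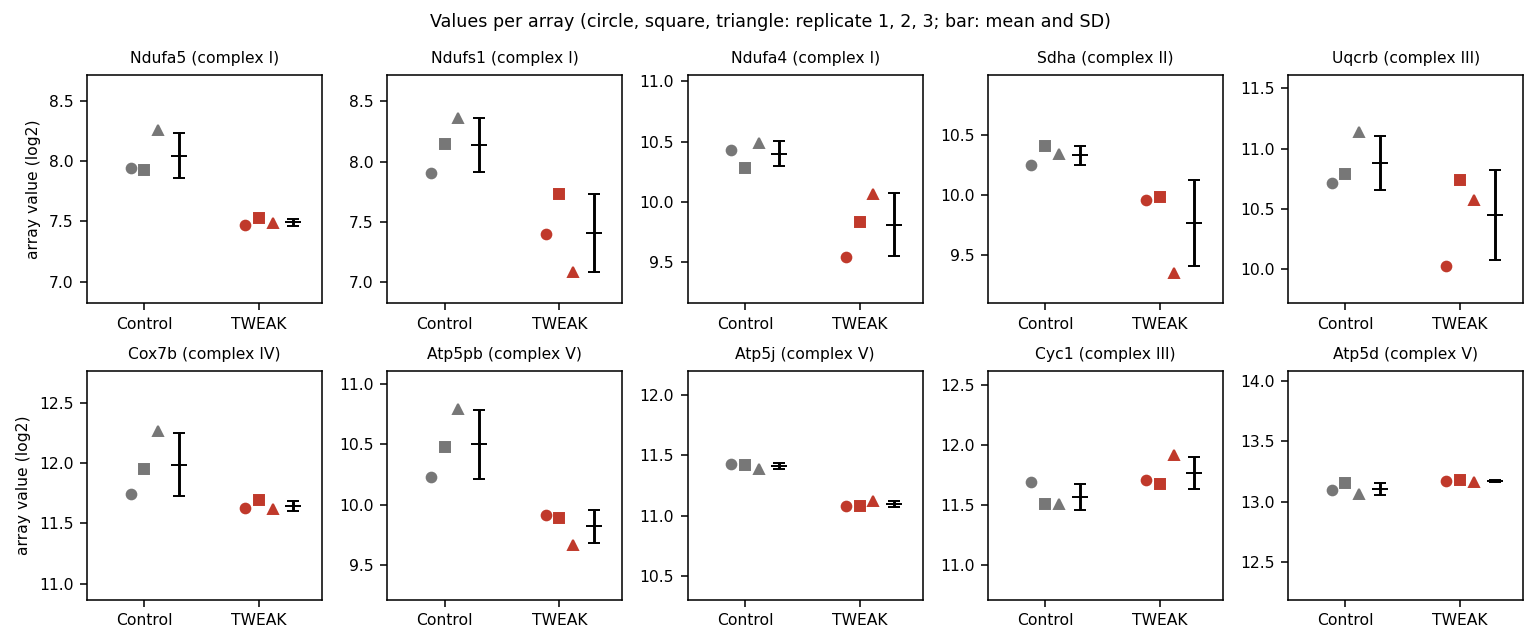
Array values (log2, vertical axis, each panel with the same span) of 10 members, controls in grey and TWEAK in red, with circle, square and triangle for replicates 1, 2 and 3 and bars for the group mean and SD (n = 3). Ndufa5 and Atp5j show tight TWEAK arrays below the controls, Sdha and Ndufa4 a wide TWEAK group, Uqcrb an overlap, and Cyc1 and Atp5d TWEAK means slightly above the controls.

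The members shared a pattern between arrays of the same group. TWEAK 1 was the lowest of the 6 arrays for 31 members (35.6%, against 11.3% of all genes), and TWEAK 3 the highest for 37 (42.5%, against 24.7%). The members' median deviation from their own gene means was 0.05, -0.00 and -0.02 on Control 1 to 3 and -0.07, -0.04 and 0.09 on TWEAK 1 to 3. TWEAK 1 was lowest for 16 of 37 members of complex I, none of 4 in complex II, 3 of 10 in complex III, 4 of 18 in complex IV and 7 of 15 in complex V. The TWEAK arrays spread more than the controls in most members: the control SD was the larger in 25 of 87, against 10812 of 22061 genes. Without TWEAK 1 the members' median difference was 0.02, in place of -0.03, and that of complex V 0.03, in place of -0.04. Among the members lower at an unadjusted p, Control 3 was the highest array for 8 of the 11, among them Ndufa5, Ndufs1 and Atp5pb. Choosing members as lower with TWEAK favours a control as the highest array, and all genes chosen in that way were not counted. Without such a choice, Control 3 was the highest array for 19.2% of all genes and 27.3% of the brighter ones. Over all members Control 3 lay above Control 1 in 36.8%, against 37.9% of all genes, and among those 11 members in 9. The part of single arrays in the lower values was not tested beyond leaving each out.

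**Figure D3:**
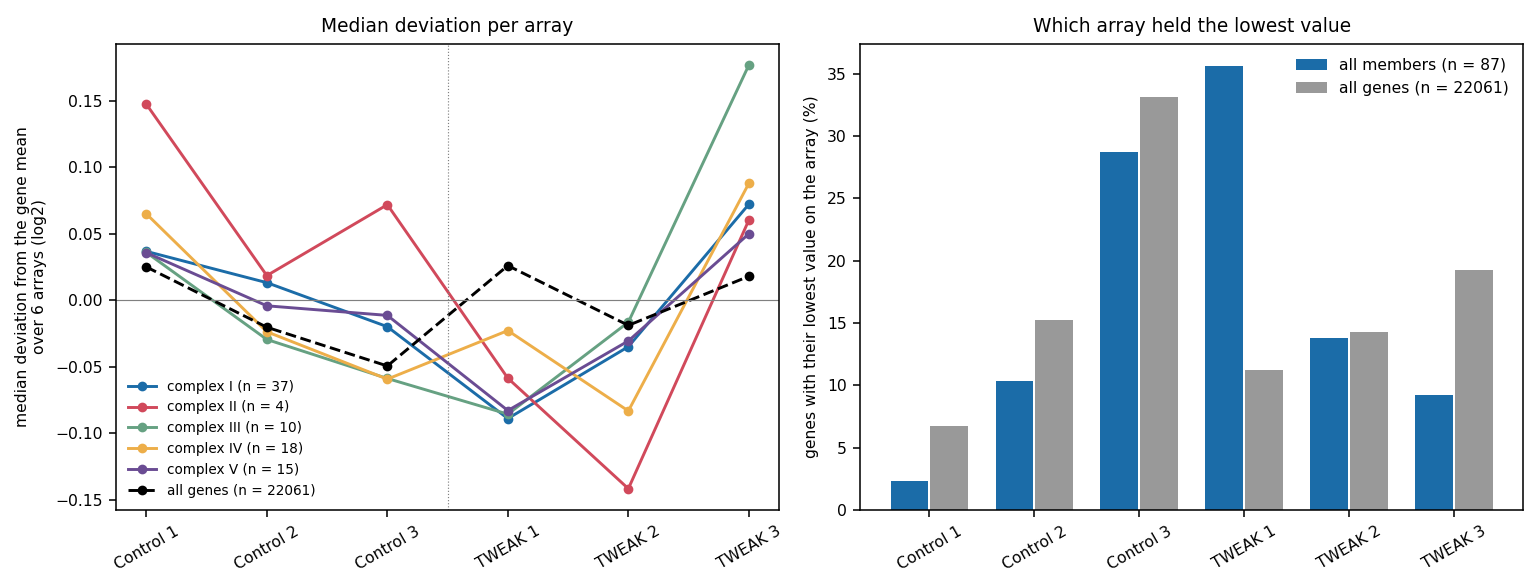
Left, the median deviation of each complex's members from their gene means (log2, vertical axis) on each of the 6 arrays, with all genes as a dashed line; right, bars giving the percentage of genes whose lowest value was on each array, members in blue and all genes in grey. TWEAK 1 holds the lowest value of 35.6% of members against 11.3% of all genes, and TWEAK 3 has the highest median in complexes I, III, IV and V.

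Assembly factors build the complexes and are not part of them. Of 50 on the list 46 were measured, and 1 was called: Cox15, which makes the haem a of complex IV. It read 9.57, 9.65 and 9.67 in controls and 9.27, 9.18 and 9.11 with TWEAK, without overlap, and fell by 0.44 (SE 0.0825, limma adjusted p = 0.0396); the call was kept without Control 1 (adjusted p = 0.0279) and lost without each of the other 5 arrays, and with the replicate block (adjusted p = 0.0744). At an unadjusted p, 5 factors were higher (10.9%, against 8.15% of all genes and 12.2% of the brighter ones). At the same threshold 8 were lower (17.4%, against 13.1% and 22.1%), and the median over the list was -0.02. For complex I, Tmem126b, which helps build the membrane arm, differed by -0.81 (SE 0.174, limma adjusted p = 0.0502), Acad9 by -0.29 and Foxred1 by 0.29, with no overlap in any of them. For complex II, Sdhaf1, which guides iron-sulphur insertion into Sdhb, differed by 0.54 (SE 0.119, limma adjusted p = 0.0527), whereas Sdhaf4 and Sdhaf3 differed by -0.39 and -0.27. For complex III, Bcs1l, which inserts the Rieske protein, differed by 0.48 and Uqcc3 by 0.49, and Ttc19 by -0.18. Cox16 and Cox11 of complex IV assembly differed by -0.62 and -0.46, and Atpaf1, Atpaf2 and Tmem70 of complex V by -0.29, 0.05 and -0.01.

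Among 18 nuclear regulators and genes of mitochondrial DNA expression, 1 was called. Pprc1, a coactivator of the Ppargc1a family that is induced by growth signals, read 9.72, 9.54 and 9.45 in controls and 10.25, 10.22 and 10.41 with TWEAK. It rose by 0.72 (SE 0.101, limma adjusted p = 0.0246), without overlap; the call was kept without Control 1 (adjusted p = 0.0136) or TWEAK 2 (0.0462), lost without any of the other 4 arrays, and lost with the replicate block (0.0555). Ppargc1a, the main coactivator of mitochondrial biogenesis, read 6.13, 6.50 and 6.84 in controls and 5.72, 5.55 and 5.93 with TWEAK. Its groups did not overlap, though the values sit around the array medians and the limma adjusted p of its difference of -0.76 (SE 0.178) was 0.0596. Gabpa, the DNA-binding subunit of GABP, differed by -0.83 (SE 0.192, limma adjusted p = 0.0577), again without overlap. At an unadjusted p, 5 of the 18 were higher (27.8%, against 8.15% of all genes and 12.2% of the brighter ones). At the same threshold 7 were lower (38.9%, against 13.1% and 22.1%). The list's median was -0.03, against 0.03 over all genes and -0.01 over the brighter ones.

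None of 18 genes of pyruvate entry and the citric acid cycle was called, 6 were lower (33.3%, against 13.1% of all genes and 22.1% of the brighter ones) and 0 higher at an unadjusted p in limma, and the median was -0.15. Dld, the lipoamide dehydrogenase shared by the large dehydrogenase complexes, differed by -0.97 (SE 0.216), Pdha1 of pyruvate dehydrogenase by -0.68 (SE 0.152) and Idh3a of the cycle by -0.50 (SE 0.114), with limma adjusted p of 0.0542, 0.0542 and 0.0552. In each of them all TWEAK arrays lay below all controls. Of 26 carriers and coenzyme Q genes none was called. At an unadjusted p, 4 were lower (15.4%, against 13.1% of all genes and 22.1% of the brighter ones) and 2 higher (7.69%, against 8.15% and 12.2%). The lowest p values there belonged to the ADP/ATP carrier Slc25a4 (-0.44), and to Etfdh (-0.53) and Etfa (-0.41), which pass electrons from fatty acid oxidation to coenzyme Q.

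The arrays also carried probe sets for 8 of the 13 subunits encoded in mitochondrial DNA, and none was called or had an unadjusted p under 0.05 in limma. Their differences ran from -0.01 to 0.10 with a median of 0.04. The complex I gene mt-Nd1 read 12.68, 12.88 and 12.89 in controls and 12.73, 13.06 and 12.96 with TWEAK, with overlap, for a difference of 0.10 (SE 0.111). The catalytic subunit of complex IV, mt-Co1, differed by 0.04 (SE 0.101). For 7 of the 8 genes (87.5%, against 6.75% of all genes) Control 1 was the lowest array. Nuclear copies of mitochondrial DNA may add to these probe sets, and this was not tested. Of the nuclear subunits that the naming rule leaves out, the acyl carrier Ndufab1 differed by 0.06 and the ATP synthase inhibitor Atpif1 by -0.12, without a call.

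**Figure D4:**
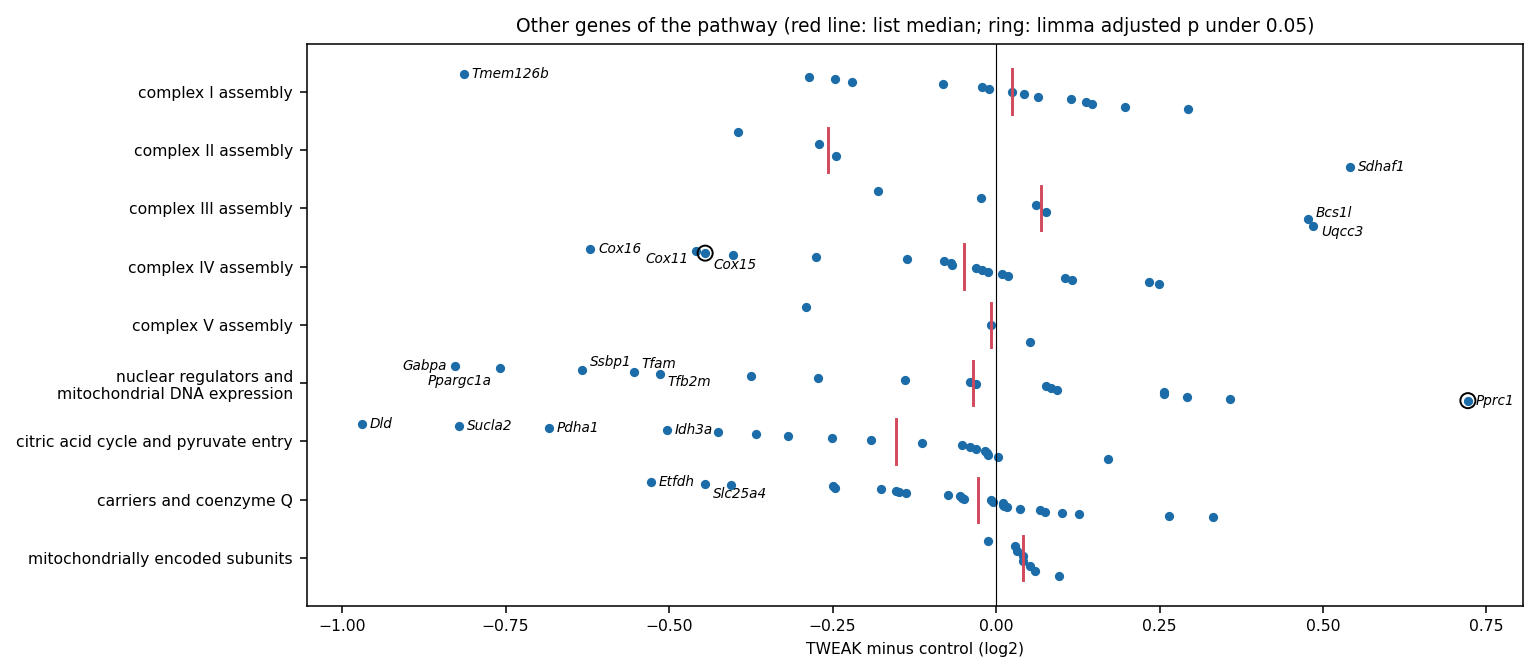
Difference (TWEAK minus control, log2, horizontal axis) of each measured gene in the lists of assembly factors, regulators, citric acid cycle, carriers and mitochondrially encoded subunits (vertical axis); red lines are list medians and rings mark the called genes Cox15 and Pprc1. The regulators spread from -0.83 to 0.72, whereas the mitochondrially encoded subunits lie between -0.01 and 0.10.

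Several probe sets measured 21 of the 87 members. They were read on the same arrays and may share sequence, so their agreement is no independent check on single values. In 17 of these members all probe sets had the same sign, among them Atp5pb, Uqcrb, Cox7b and Atp5l with its 6 probe sets. Cycs, Ndufb5, Ndufb6 and Ndufc1 had probe sets of opposite sign. Many of these genes have processed copies elsewhere in the genome whose sequences are nearly the same, so a probe set may read more than its own gene, and their values are uncertain to that extent.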

How the data were processed

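RNA from 6 cultures of MCT cells, 3 per group, was measured on Affymetrix whole-transcript arrays; groups and replicate numbers come from the sample titles. The deposited values are log2 expression per probe set; the submitters' processing notes name RMA and Affymetrix Expression Console, while the sources used here give no version and no genome build. Per the file headers, the deposited workbook also has a ratio of the TWEAK to the control mean, a p-value and a false discovery rate for every probe set, all computed by the authors. RMA corrects background, equalises array distributions and summarises probes. The number of arrays limits the precision.

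Of 28361 probe sets, 25465 had 1 gene symbol, 2894 none and 2 several; names came from those with 1. Old symbols were replaced with those of a RefSeq table (GRCm38.p6, names only): accessions matched 22115 probe sets, symbols 1815 and synonyms 625, while 910 kept the file's name. This changed the names of 5 member probe sets. The brightest probe set stood for a gene, with no filter on dim ones. Differences were fitted with limma 3.58.1 (lmFit, eBayes) in R 4.3.3 without a replicate block, and p-values were adjusted by Benjamini-Hochberg over all genes; the fit was tested on simulated data. Python 3.11.15, pandas 2.3.3 and matplotlib 3.10.9 made tables and figures. Promoters came from a RefSeq table.

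The members and the lists (assembly factors, regulators, citric acid cycle, carriers, mitochondrially encoded subunits, left-out subunits, tissue-restricted isoforms, response check and cell type markers) were chosen with earlier results of these data known. Named were every called member or list gene, in each complex the 4 members with the smallest p and the brightest and dimmest, every tissue-restricted isoform, Ppargc1a, the 3 genes with the smallest p in each other list, and members whose probe sets differ in sign. Other named subunits are given as examples and were chosen after their values were seen. Alternatives covered normalisation, variance model, replicate block, array weights, dim genes, probe sets and leaving out each array. Replicate numbers were taken not to pair the arrays, since nothing in the labels pairs them and the check below did not hold for every number. Some genes are not reported here.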

Additional observations from a re-analysis of the deposited data

How the results depend on the processing

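The count of called genes, 661, was 252 after cyclic loess, 207 with the replicate block, 3223 with array weights, 1020 among genes brighter than the median gene, 107 with each probe set on its own, and between 1 (without TWEAK 1) and 1876 (without Control 1) with 1 array left out. The count of called members, 1, was 0 after centring arrays on their medians, after cyclic loess, with the replicate block and with each probe set on its own. It was 2 with the mean of all probe sets, 4 with a trended robust variance model (against 2.39% of all genes called lower there), 5 among brighter genes (5.83% called lower) and 7 with array weights (9.56% called lower), where Control 2 received a weight of 5.6 and the other arrays 0.53 to 0.94. With 1 array left out it ran from 0 to 3, the 3 being Atp5pb, Ndufa5 and Ndufs1 without Control 1 (6.40% of genes called lower). Ndufa5 was lower under all 14 alternatives and called under 5. The median of complex II ran from -0.205 to -0.0431 with 1 array left out and that of complex V from -0.06 to 0.0327. Same-numbered arrays correlated at 0.196, 0.359 and -0.0716 in their deviations from group means over 22061 genes, and Control 1 correlated best with TWEAK 3 (0.288), so not every array matched its own number. Among the genes named by the rules above, signs turned only in uncalled ones with differences near 0. The signs of other genes were not followed. The members' median, -0.0296 in the main fit, turned to 0.0069 after centring, 0.0007 without Control 1 and 0.0185 without TWEAK 1. It kept its sign under the other alternatives. Centring gave 0.0013 for Cox8c, 0.0061 for Cycs, 0.0036 for Ndufa4l2, 0.035 for Ndufc1, 0.0001 for Uqcrfs1 and 0.0294 for Tmem70. Cyclic loess gave -0.0132 for Atp5d, -0.0158 for Ndufs7, -0.0333 for mt-Co1 (COX1), -0.0216 for mt-Nd2 (ND2) and 0.0269 for Tmem70. Array weights gave 0.0243 for Cox8c, 0.0044 for Cycs, -0.0113 for Emc8, 0.0298 for Ndufc1 and 0.052 for Tmem70, and the mean of probe sets gave 0.0485 for Cycs and 0.0073 for Ndufc1. With 1 array left out the ranges were -0.0246 to 0.09 (Atp5k), -0.0331 to 0.1051 (COX1), -0.0454 to 0.2104 (Cox7b2), -0.1236 to 0.0845 (Cox8c), -0.1519 to 0.1169 (Cycs), -0.0281 to 0.0866 (Emc8), -0.105 to 0.0164 (Ndufa4l2), -0.0373 to 0.1172 (Ndufab1), -0.2611 to 0.09 (Ndufb6), -0.0253 to 0.0434 (Ndufc1), -0.0059 to 0.1775 (Sdhb), -0.1351 to 0.003 (Sdhc), -0.0747 to 0.0981 (Tmem70) and -0.1166 to 0.0093 (Uqcrfs1). The causes of these moves were not tested.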
